A study of Mus musculus with 6 samples.

Results

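The respiratory chain genes of the mouse prostate, nuclear and mitochondrial, were followed in hormone-induced and control mice. Members were the genes whose symbol begins with Ndufa, Ndufb, Ndufc, Ndufs or Ndufv (complex I), is Sdha to Sdhd (complex II), or begins with Uqcr (complex III), Cox4 to Cox8 (complex IV) or Atp5 (ATP synthase), together with the mitochondrially encoded mt-Nd, mt-Co, mt-Atp and mt-Cytb genes. This gave 105 of 34745 genes, 92 of them nuclear and 13 mitochondrial, chosen by symbol, with earlier results of these data known. Bulk RNA was sequenced from the prostate of 6 male C57BL/6 mice, 6 to 8 weeks old at the start, and the lobes taken were not stated. The 3 mice of the T + E2 group carried 1 subcutaneous slow-release pellet of testosterone and estradiol, replaced monthly, for 12 weeks, and the 3 mice of the CON group only had the skin cut and closed. Reads counted on genes numbered 14816146 to 16555549 per mouse, and levels are given as CPM, counts relative to the scaled library size. In bulk tissue, fewer cells of a type and less RNA per cell cannot be told apart.

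The respiratory chain sits in the inner mitochondrial membrane. Complexes I and II pass electrons from NADH and succinate to ubiquinone, complex III passes them on to cytochrome c and complex IV to oxygen, while complexes I, III and IV pump protons that drive ATP synthase. Most subunits are encoded in the nucleus and imported, whereas the mitochondrial genome encodes a small set of membrane-embedded core subunits, transcribed as long polycistronic RNAs, so both genomes must supply complexes I, III, IV and ATP synthase but not complex II.

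A pair of libraries stood apart before any comparison. The 7 seminal vesicle genes searched, among them the secretory proteins Svs4 and Svs5, summed to 10310.8 CPM in CON mouse 2 and to 641.9 CPM in T + E2 mouse 2, against 0.628 to 4.1 CPM in the other mice. CON mouse 2 also had the highest sums of 13 striated muscle markers (413.6 CPM against 91.7 and 217.3 in the other CON mice and 116.2 to 341.0 in T + E2 mice) and of 7 fat markers (159.7 CPM against 15.6 to 46.0 elsewhere). Of the luminal epithelial markers, Epcam and Krt18 were present in every mouse at 386.4 CPM or more, and 5 of 8 male germ cell markers had no count in any mouse. Luminal markers summed to 15464.8 to 20082.6 CPM in the CON group, most of it the secretory protein gene Pbsn, against 4503.9 to 5088.9 CPM in the T + E2 group. Of the 6 luminal markers, 1 was called higher and 2 lower in the T + E2 group (10.4% and 9.25% of all tested genes). Their median log2 fold change was -0.16. Smooth muscle markers summed to 3245.6 to 4008.4 CPM in the CON group against 2801.3 to 3077.1 CPM in the T + E2 group. Leukocyte markers summed to 53.4 to 141.0 CPM in the CON group and 121.9 to 216.7 CPM in the T + E2 group. The part of these cells in the results was not tested, and results are also given without CON mouse 2 and T + E2 mouse 2.

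Mitochondrial members share sequence with each other or with the nuclear genome, which limits how reads can be assigned. Of the 13, 11 matched at least 1 annotated pseudogene. Beyond the copies described next, Gm13340 matched mt-Co1 at 97.6% over 1542 bases. The end of mt-Atp8 and the start of mt-Atp6, both ATP synthase subunits, are the same 43 bases of the mitochondrial genome (MT:7927-7969, plus strand, GRCm38), read in different frames. A stretch of chromosome 1 carries copies of part of the mitochondrial genome, annotated as the pseudogenes Gm10222, Gm10925, Gm28437, Gm28438, Gm28439, Gm28661 and Gm29216. The copy of mt-Atp6, Gm10925, matched it at 678 of 678 bases, and that of mt-Nd4l, Gm10222, at all 294 of its bases. Gm29216 matched mt-Co1, the catalytic subunit of complex IV, at 98.78% of 492 compared bases, and all 6 differing bases lay close together, shown in capitals in the 60-base stretches of mt-Co1 (MT:6381-6440, plus strand) and Gm29216 (chr1:24616138-24616197), both written in the reading direction of mt-Co1.
mt-Atp8 and mt-Atp6 overlap: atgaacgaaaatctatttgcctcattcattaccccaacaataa
mt-Co1: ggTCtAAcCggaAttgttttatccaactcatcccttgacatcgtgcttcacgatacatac
Gm29216: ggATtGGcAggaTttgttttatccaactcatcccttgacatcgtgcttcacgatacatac

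A read that lies within the compared part of mt-Co1 and misses these 6 bases matches the copy equally well. The copy Gm10925 took 12.8 to 14.3% of the counts of its pair with mt-Atp6, Gm10222 took 13.9 to 14.9% of its pair with mt-Nd4l, and Gm29216 took 3.34 to 3.75% of the counts of its pair with mt-Co1. These shares varied little over the 6 mice. Log2 fold changes (T + E2 against CON) of the 7 copies ran from 0.30 to 0.47, and those of their partners from 0.20 to 0.43. Of the copies, only Gm10222 passed the test, at 0.47 ± 0.13 (SE, edgeR adjusted p = 0.0439). How the counting treated reads that align in several places is not given in the sources used here, and counts of these genes are therefore uncertain in level.

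The 3 nuclear members that passed the test were Ndufa1, Ndufa7 and Uqcrh. They rose in the T + E2 group, by 1.36 to 1.68 times. Ndufa1 and Ndufa7 are accessory subunits of complex I, and Uqcrh is the hinge protein of complex III, which aids the docking of cytochrome c1 and cytochrome c. Their promoters are shown because they moved in the same direction. That of Ndufa11, another complex I accessory subunit with a log2 fold change of 0.03, is shown as an example with other motif letters. Sequences were credited to RefSeq on GRCm38.p6, which had a promoter for 73 of the 92 nuclear members. Each is the 250 bases before the most upstream start, in the direction of the gene, with matched motifs in capitals: Ndufa1 (chrX:37191239-37191488, minus strand), Ndufa7 (chr17:33824322-33824571, plus strand), Uqcrh (chr4:116075071-116075320, minus strand) and Ndufa11 (chr17:56717512-56717761, plus strand).
Ndufa1: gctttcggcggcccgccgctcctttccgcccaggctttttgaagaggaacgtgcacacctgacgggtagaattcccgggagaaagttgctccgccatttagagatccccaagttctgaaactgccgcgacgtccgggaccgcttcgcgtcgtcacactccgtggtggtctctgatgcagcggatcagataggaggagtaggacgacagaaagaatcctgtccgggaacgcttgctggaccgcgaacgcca
Ndufa7: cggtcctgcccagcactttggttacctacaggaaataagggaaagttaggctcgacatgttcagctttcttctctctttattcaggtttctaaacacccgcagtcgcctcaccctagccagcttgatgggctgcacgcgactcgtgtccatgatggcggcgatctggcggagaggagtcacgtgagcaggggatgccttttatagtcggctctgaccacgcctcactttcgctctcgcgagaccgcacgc
Uqcrh: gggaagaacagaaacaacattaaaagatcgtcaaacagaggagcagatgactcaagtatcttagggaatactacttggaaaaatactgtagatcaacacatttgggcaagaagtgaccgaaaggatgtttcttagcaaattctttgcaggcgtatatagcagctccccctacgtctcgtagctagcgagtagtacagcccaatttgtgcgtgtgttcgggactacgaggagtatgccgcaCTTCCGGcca
Ndufa11: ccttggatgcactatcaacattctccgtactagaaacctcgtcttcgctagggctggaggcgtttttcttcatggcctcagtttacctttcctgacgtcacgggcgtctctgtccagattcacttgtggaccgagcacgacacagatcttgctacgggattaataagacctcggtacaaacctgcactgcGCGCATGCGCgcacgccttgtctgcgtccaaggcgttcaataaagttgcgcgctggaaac

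Searched on both strands over the 300 bases around the start, the ETS motif CCGGAAG, which GABPA binds, occurred in 23.3% of the 73 members and in 9.93% of 27025 genes with a promoter of that length. The core of the NRF1 motif, GCGCATGC, occurred in 16.4% of members against 3.05% of all genes. The YY1 motif AAGATGGC occurred in 12.3% against 3.19%, and the ERR motif TCAAGGTCA in 2.74% against 0.466%. Members with a match numbered 17 (ETS), 12 (NRF1), 9 (YY1) and only 2 (ERR). Uqcrh held 1 ETS match on the other strand next to its start, and Ndufa11 held the NRF1 core once on each strand, in matches that overlap. None of these letters was found in the printed bases of Ndufa1 and Ndufa7. Ndufa10 and Ndufb2, accessory subunits with log2 fold changes of -0.13 and -0.04, held none of them either. Only these few genes were set side by side, and whether the motifs go with the fold change over the members was not tested. Letter matches are a description of the sequence and do not show binding.

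Changes of the respiratory chain between the groups were small. With the quasi-likelihood test of edgeR and Benjamini-Hochberg adjustment over 15580 tested genes, 3 of the 100 members tested were upregulated at an adjusted p under 0.05, where 10.4% of all tested genes were upregulated. No member was downregulated, where 9.25% of all tested genes were; 3 members had an unadjusted p under 0.05 and were lower (17.1% of all genes), and DESeq2 also called 0 lower. At an unadjusted p under 0.05, 14 members were higher (17.4% of all genes). With the further demand of a log2 fold change over 1 in size, which is the study's rule for a DEG, 0 members were higher (4.27% of all genes) and 0 lower (3.38% of all genes), by edgeR and by DESeq2 alike. The 95% interval of the fold change lay within 2-fold in either direction for 95 of 100 members and within 1.5-fold for 63.

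Although few members passed, 77 of 100 had a log2 fold change above 0, where the median over all tested genes was -0.002 and 49.8% were above 0. The median was 0.17 over the 87 nuclear members tested, or 1.13-fold, and 0.24 over the 13 mitochondrial members, or 1.18-fold. The values of the 3 CON mice and the 3 T + E2 mice did not overlap for 16 members that were higher and 5 that were lower, against 20.0% and 20.7% of all tested genes. Members move together from mouse to mouse, so these counts are not counts of independent events. Without CON mouse 2 and T + E2 mouse 2, medians were 0.10 (nuclear) and 0.29 (mitochondrial), and no member passed the test (5 higher and 3 lower at an unadjusted p under 0.05, by edgeR's quasi-likelihood test).

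**Figure D1:**
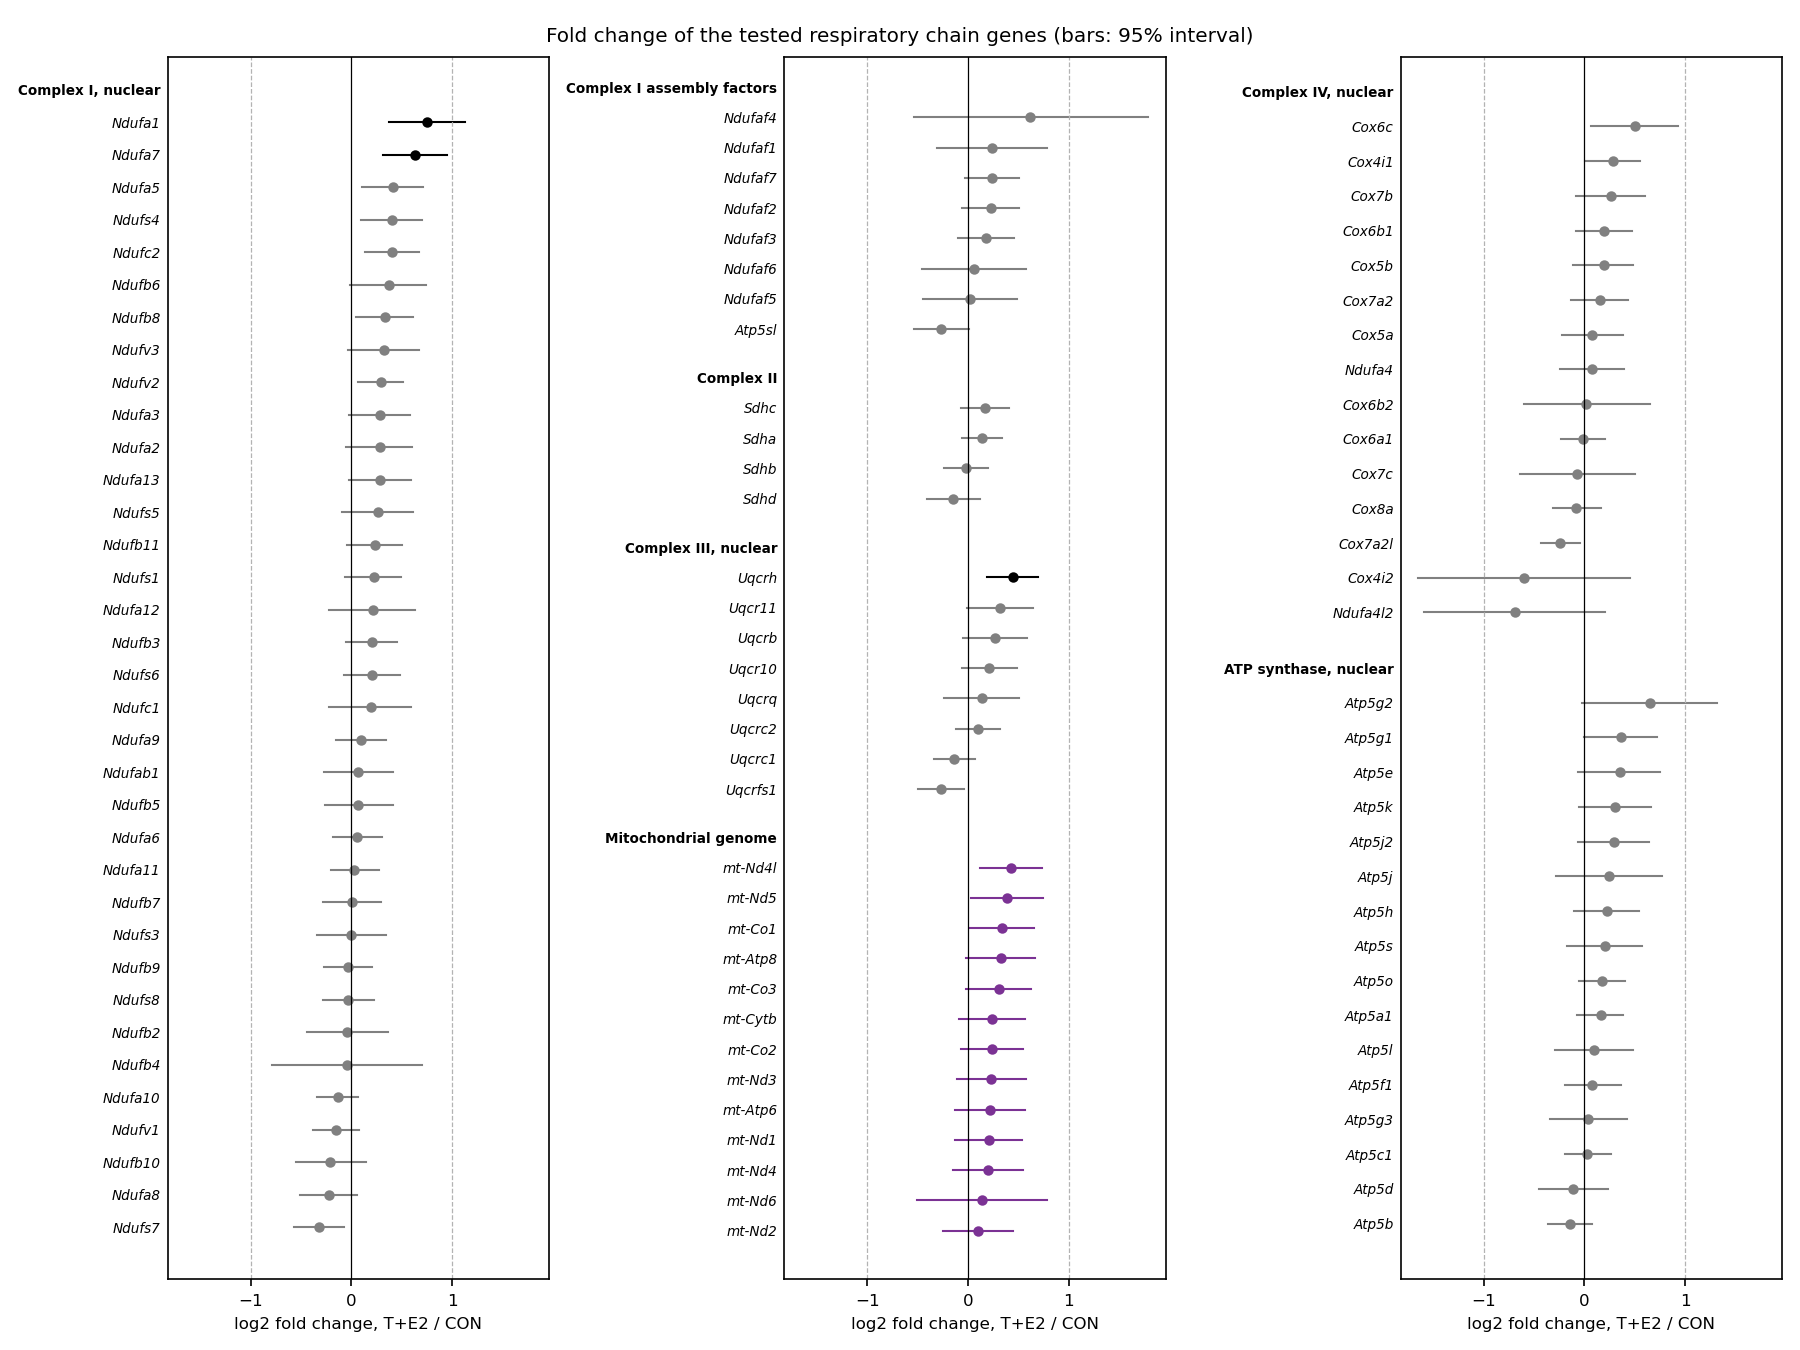
Log2 fold change (T + E2 against CON) of the tested respiratory chain genes, 1 of them not drawn, grouped by complex and genome, with 95% intervals from edgeR; black marks the 3 genes with an adjusted p under 0.05, purple the mitochondrially encoded genes, and dashed lines a 2-fold change. Most points lie slightly right of 0, and all but 5 intervals stay inside the dashed lines.

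Complex I had 36 nuclear subunits, all tested. The 7 core subunits, which carry the flavin and the iron-sulfur clusters, had no shared direction: 3 had a log2 fold change above 0, all lay between -0.32 and 0.29, and none passed the test by edgeR (2 higher and 1 lower at an unadjusted p under 0.05) or DESeq2. Of the 29 accessory subunits, which surround and stabilise the core, 23 were above 0, with a median of 0.20, and 2 passed.

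Ndufa1 (ENSMUSG00000016427, chrX:37187588-37191163, GRCm38) is a small membrane subunit needed for complex I assembly. Its level was 68.1, 60.8 and 90.8 CPM in CON mice 1, 2 and 3 and 124.9, 137.6 and 107.1 CPM in T + E2 mice 1, 2 and 3. All 3 T + E2 mice lay above all CON mice. The log2 fold change was 0.75 ± 0.16 (SE, n = 3 per group), and the adjusted p, from the quasi-likelihood test of edgeR and Benjamini-Hochberg adjustment, was 0.0165. Ndufa1 has 15 pseudogenes at 90% identity or more over a part of its coding sequence. The adjusted p rose to 0.0519 without CON mouse 1, to 0.0575 without T + E2 mouse 2, and to 0.118 without both mice 2.

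Ndufa7 (ENSMUSG00000041881, chr17:33824591-33838316) belongs to the matrix arm. Its level was 76.8, 77.2 and 101.8 CPM in CON mice, against 139.1, 141.3 and 116.1 CPM in T + E2 mice. As for Ndufa1, CON mouse 3 was the highest of its group and T + E2 mouse 3 the lowest of its own, and the groups did not overlap. The log2 fold change was 0.63 ± 0.14 (SE, n = 3 per group), with an edgeR quasi-likelihood Benjamini-Hochberg adjusted p of 0.0172. Leaving out CON mouse 1 or 2 or T + E2 mouse 1 or 2 gave adjusted p from 0.0527 to 0.0595, and leaving out both mice 2 gave 0.139.

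Several further genes were chosen after their values were seen (Ndufc2, Ndufs7, Ndufv2, Ndufaf4, Uqcrc1 and Cox6c). In the first 3 and in Uqcrc1 the groups separated without passing. Ndufc2 had 30.3, 33.6 and 35.7 CPM in CON mice, against 43.5, 49.6 and 38.3 CPM in T + E2 mice, with a log2 fold change of 0.40 ± 0.12 (SE) and an edgeR adjusted p of 0.0505. It passed with DESeq2, with median-of-ratios scaling, with the mitochondrial genes or the 10 most abundant genes left out of scaling, with the FPKM filter and without T + E2 mouse 3. Ndufs7, a core subunit that holds an iron-sulfur cluster, had 41.5, 45.9 and 52.7 CPM in CON mice, against 37.6, 35.7 and 38.9 CPM in T + E2 mice. It was the lowest of the complex I genes by fold change, at -0.32 ± 0.11 (SE), with an edgeR quasi-likelihood adjusted p of 0.0723, and it passed with total-count scaling and without CON mouse 1.

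Another member of the core gave a value on the other side of 0. Ndufv2, which also holds an iron-sulfur cluster, had 66.1 to 70.8 CPM in CON mice, against 77.7 to 90.9 CPM in T + E2 mice, with a log2 fold change of 0.29 and an edgeR adjusted p of 0.0703. The core subunits therefore held values in both directions.

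The 8 complex I assembly factors that the symbol rule takes in help to build the complex and are not part of it. They were the Ndufaf genes and, despite its symbol, Atp5sl. Their median log2 fold change was 0.20, and none passed (0 at an unadjusted p under 0.05 by edgeR, and 0 called by DESeq2). Only Atp5sl was below 0, at -0.27 (edgeR adjusted p = 0.157). The largest value, that of Ndufaf4 at 0.62, rested on 1 mouse. It had 4.04, 3.81 and 6.97 CPM in CON mice, against 14.4, 4.26 and 4.20 CPM in T + E2 mice, and its adjusted p by edgeR's quasi-likelihood test was 0.421.

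**Figure D2:**
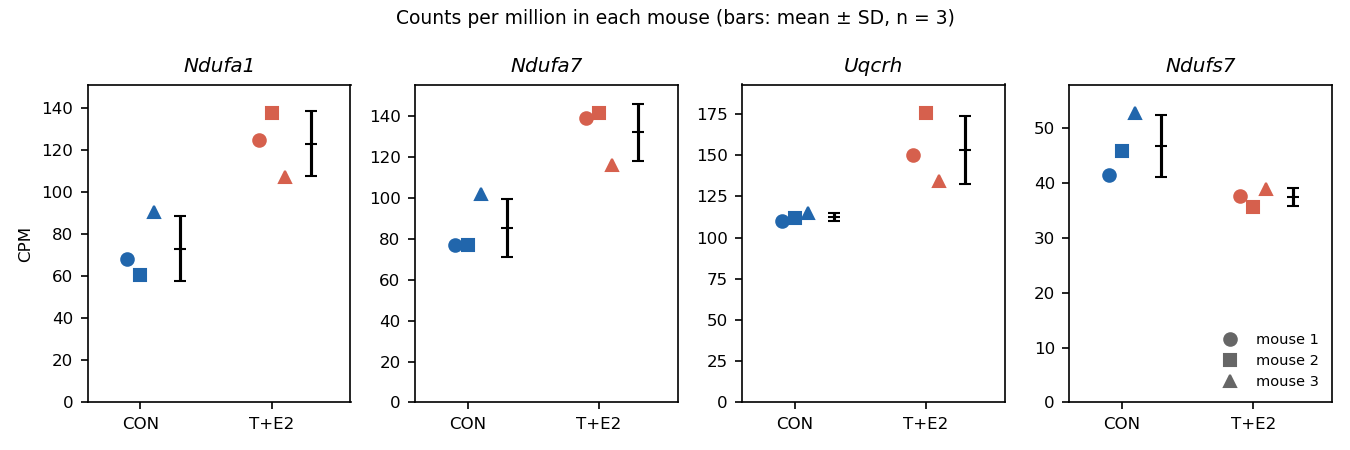
CPM of Ndufa1, Ndufa7, Uqcrh and Ndufs7 in each mouse, with the mean ± SD of each group beside the points; axes start at 0. The groups do not overlap for any of the 4 genes, and T + E2 mouse 3 is the lowest of its group for the first 3.

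Complex II, succinate dehydrogenase, is the one complex with no mitochondrially encoded subunit and is also an enzyme of the citric acid cycle. Sdha, the flavoprotein, had 257.9, 261.4 and 250.1 CPM in CON mice, against 293.3, 290.2 and 263.3 CPM in T + E2 mice. Sdhb, the iron-sulfur subunit, had 62.6 to 71.6 CPM against 60.4 to 67.2 CPM. The membrane anchors Sdhc and Sdhd had log2 fold changes of 0.17 and -0.15. None of the 4 passed (0 at an unadjusted p under 0.05 by edgeR, and 0 called by DESeq2), the median was 0.06, and all 4 intervals lay within 1.5-fold, so a larger change of any complex II gene was outside its interval.

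Complex III had 8 nuclear members, of which Uqcrh passed. Uqcrh (ENSMUSG00000063882, chr4:116066965-116075071) had 110.1, 112.0 and 115.1 CPM in CON mice, against 150.2, 175.3 and 134.1 CPM in T + E2 mice. The CON mice lay close together, and all T + E2 mice lay above them. The log2 fold change was 0.45 ± 0.11 (SE, n = 3 per group), and the Benjamini-Hochberg adjusted p by edgeR was 0.0270. Leaving out any single mouse other than T + E2 mouse 3 gave an adjusted p of 0.0535 to 0.0787, and leaving out both mice 2 gave 0.142. The gene has 2 pseudogenes of similar sequence, Uqcrh-ps1 and Uqcrh-ps2, and overlaps the pseudogene Gm12854 on the opposite strand.

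Other complex III genes had log2 fold changes on both sides of 0, none past the threshold. Uqcrfs1, the Rieske iron-sulfur protein, had 100.3, 100.6 and 118.1 CPM in CON mice, against 84.9, 88.5 and 91.3 CPM in T + E2 mice, a log2 fold change of -0.27 (edgeR adjusted p = 0.0927). Uqcrc1 had 139.3 to 161.9 CPM against 133.1 to 138.3 CPM, with a log2 fold change of -0.14. The small subunits Uqcr11 and Uqcr10 had log2 fold changes of 0.32 and 0.21, without passing.

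Complex IV, cytochrome c oxidase, has subunits that come in isoforms for different tissues. None of the 15 tested nuclear members passed by edgeR (2 higher and 1 lower at an unadjusted p under 0.05), and DESeq2 called Cox6c. Cox6c had 48.2, 42.9 and 69.7 CPM in CON mice, against 84.4, 77.5 and 65.7 CPM in T + E2 mice, with a log2 fold change of 0.50 ± 0.19 (SE) and an edgeR adjusted p of 0.0970. The groups overlapped, since CON mouse 3 lay above T + E2 mouse 3.

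The widely expressed isoforms were the abundant ones in every pair, compared per kilobase of transcript over the 6 mice. Cox4i1 was at 421.1 CPM per kb and Cox4i2, the hypoxia-responsive form, at 0.851. Cox6a1 was at 373.2 CPM per kb and Cox6a2, the heart and skeletal muscle form, at 1.16, while Cox6b1 was at 197.3 and Cox6b2, a testis form, at 3.22. Cox8a was at 363.4 CPM per kb against 0.604 for Cox8b, and Cox7b at 113.2 against 0.0374 for Cox7b2. Cox7a2l was at 216.5 CPM per kb and Cox7a2 at 54.2, against 1.42 for the muscle form Cox7a1. Ndufa4, now counted to complex IV, was at 160.7 CPM per kb and its hypoxia-induced relative Ndufa4l2 at 1.24.

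Of the isoform genes, Cox7a2l gave the clearest separation. It had 251.3, 236.3 and 268.2 CPM in CON mice, against 214.3, 214.5 and 213.2 CPM in T + E2 mice, a log2 fold change of -0.24 ± 0.09 (SE, edgeR adjusted p = 0.0928). Cox4i1 had 257.6 to 337.1 CPM against 345.8 to 353.2 CPM, a log2 fold change of 0.28 (edgeR adjusted p = 0.141). The groups did not overlap for either gene, in opposite directions.

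The 5 members that were not tested were all tissue-limited forms of complex IV with too few counts. Cox6a2 had 1, 42 and 10 counts in CON mice, against 2, 0 and 17 in T + E2 mice. Its highest counts were in the same mice as the highest sums of striated muscle markers, CON mouse 2 (413.6 CPM), T + E2 mouse 3 (341.0 CPM) and CON mouse 3 (217.3 CPM); whether muscle was its source was not tested. Cox8b had 0 to 7 counts, Cox7a1 had 4 to 14, Cox7b2 had 2 counts in T + E2 mouse 2 and 0 elsewhere, and the testis form Cox8c had 0 in all mice, below the 3 counts per mouse taken as the limit of detection.

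ATP synthase had 16 nuclear members, all tested, with a median log2 fold change of 0.18 and 14 above 0. None passed (0 at an unadjusted p under 0.05 by edgeR, and 0 called by DESeq2). Atp5b, the catalytic beta subunit and the most abundant nuclear member per kilobase, had 837.1, 846.9 and 941.2 CPM in CON mice, against 819.6, 804.0 and 757.6 CPM in T + E2 mice. Atp5a1, the alpha subunit that stands beside it in the same ring, had 517.0, 573.6 and 605.5 CPM against 643.3, 622.2 and 623.0 CPM. The groups did not overlap for either gene, but in opposite directions, with log2 fold changes of -0.14 and 0.16 and edgeR adjusted p of 0.333 and 0.293.

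The c subunit of the rotor ring is made from 3 genes that encode the same mature protein. Atp5g3 was the most abundant of them, at 126.7 CPM per kb, with Atp5g1 at 7.66 and Atp5g2 at 4.12. The principal transcript of Atp5g1 is longer, at 2676 bases against 718 for Atp5g3 and 586 for Atp5g2. Before division by length, Atp5g3 had 75.9 to 115.8 CPM, Atp5g1 14.0 to 25.0 and Atp5g2 1.65 to 3.80. Log2 fold changes were 0.04 (Atp5g3), 0.36 (Atp5g1) and 0.65 (Atp5g2), the last with an interval of -0.02 to 1.32. Atp5g1 and Atp5g2 each have a pseudogene identical or nearly identical to their coding sequence, so their levels are uncertain.

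Nuclear subunits with a pseudogene at 99% identity or more had low levels. The 8 tested subunits with a pseudogene at 99% identity or more were Atp5l, Atp5g1, Atp5g2, Ndufb4, Ndufa12, Ndufab1, Ndufs5 and Cox7c. Their median level was 8.93 CPM per kb (1.22 to 36.9), against 84.8 CPM per kb (5.51 to 435.5) in the 68 other subunits, assembly factors and tissue-limited isoforms apart. Subunits whose closest pseudogene was just under 99% identical lay above the range of the 8. They were Atp5h (98.97%, 91.2 CPM per kb), Atp5f1 (98.84%, 95.5), Uqcr11 (98.81%, 155.2), Ndufs3 (98.61%, 45.1) and Uqcrb (98.2%, 125.0). Cox5b has a 99.22% identical copy annotated as protein-coding, Gm11273. It was counted among the 68, at 85.7 CPM per kb. Cox7c of complex IV, for example, had 4.35 to 7.30 CPM. Cox6c of the same complex, with a pseudogene at 96.93% identity, had 42.9 to 84.4 CPM. Levels per kilobase also depend on the length of the principal transcript, which was 2676 bases for Atp5g1 and 2448 for Ndufab1. Fold changes did not follow the split at 99% identity, with medians of 0.15 and 0.17 on the log2 scale. Whether reads were lost to copies was not tested. The levels of these 8 genes are therefore uncertain.

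**Figure D3:**
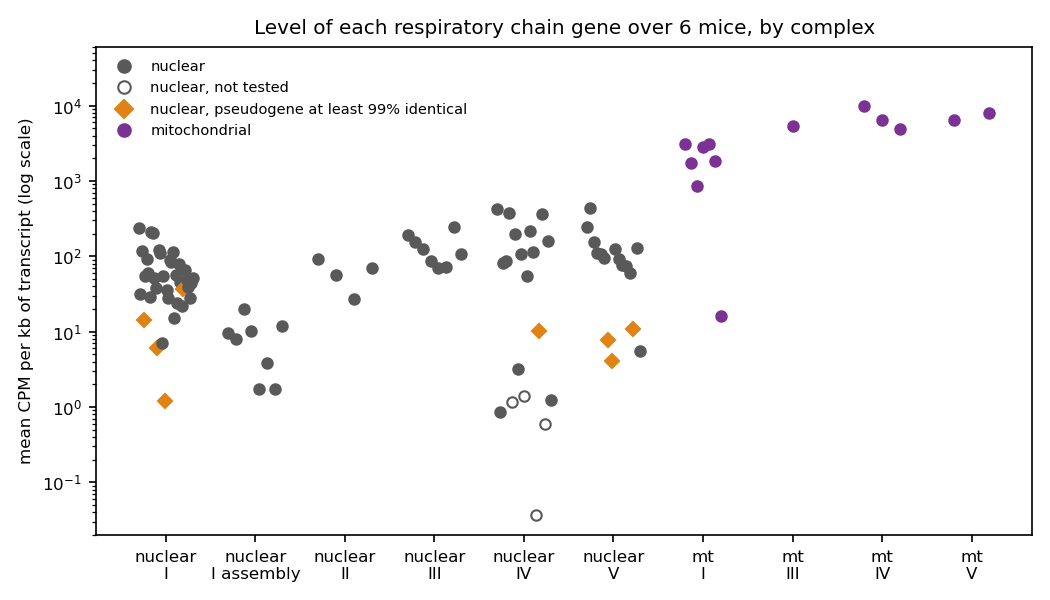
Mean level of each member over the 6 mice in CPM per kilobase of its principal transcript (log axis), by complex and genome; open circles were not tested, diamonds mark nuclear members with a pseudogene at 99% identity or more, and Cox8c, at 0, is not drawn. Mitochondrial members lie above the nuclear ones except mt-Nd6 at 16.1, and diamonds lie low within their complexes.

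The 13 mitochondrial members took 4.121, 5.334 and 4.034% of all counts in CON mice 1, 2 and 3 and 5.294, 5.940 and 4.695% in T + E2 mice 1, 2 and 3. Counting error is small here, the 95% exact binomial interval of the lowest share being 4.024 to 4.044%, and covers counting only. The group means were 4.50% ± 0.727 and 5.31% ± 0.623 (SD, n = 3), and the groups overlapped through CON mouse 2, which lay above T + E2 mice 1 and 3. The 92 nuclear members took 0.6746, 0.6967 and 0.7643% of counts in CON mice, against 0.7388, 0.7781 and 0.7086% in T + E2 mice, with means of 0.712% ± 0.0467 and 0.742% ± 0.0348 (SD, n = 3). Mitochondrial counts were 5.278 to 7.655 times nuclear ones in the CON group and 6.626 to 7.634 times in the T + E2 group, so the ratio overlapped as well.

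**Figure D4:**
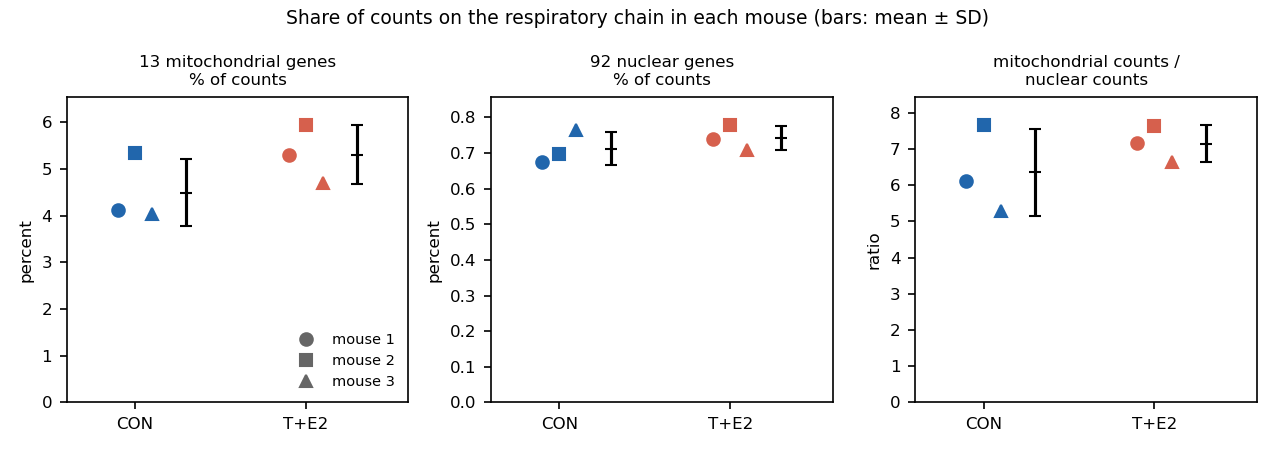
Share of all counts on the 13 mitochondrial and the 92 nuclear members, and the ratio of both, in each mouse, with the mean ± SD of each group beside the points. The groups overlap in all 3 panels, and CON mouse 2 is the highest of its group in the first and the third panel.

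The mitochondrial genes mostly ranked the mice alike, and in the CON group this order differed from that of most nuclear genes. CON mouse 2 was the highest of its group for 12 of 13 mitochondrial members, whereas CON mouse 3 was the highest for 69 of 87 tested nuclear members. In the T + E2 group, mouse 2 was the highest for 12 of 13 mitochondrial and 48 of 87 nuclear members, and mouse 3 the lowest for 12 of 13 and 64 of 87. CON mouse 2 is the library with the highest sums of seminal vesicle, striated muscle and fat markers. The next highest were T + E2 mouse 2 for seminal vesicle (641.9 CPM) and T + E2 mouse 3 for striated muscle (341.0 CPM). The part of these tissues in the mitochondrial counts was not tested. Without CON mouse 2, the median log2 fold change of the mitochondrial members was 0.37 in place of 0.24, and that of the nuclear members 0.15.

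All 13 mitochondrial log2 fold changes were above 0, from 0.10 (mt-Nd2) to 0.43 (mt-Nd4l), and all 13 intervals lay within 2-fold. The sign held under every scaling, filter and tool run, and turned for mt-Nd2 without CON mouse 1 (-0.003) and for mt-Nd6 without CON mouse 3 (-0.13). None passed the test by edgeR (3 higher at an unadjusted p under 0.05), while DESeq2 called mt-Nd4l and mt-Nd5. For mt-Nd4l, a membrane subunit of complex I, the CON mice had 733.0, 899.1 and 725.6 CPM and the T + E2 mice 1061.4, 1198.7 and 919.5 CPM. It was the only mitochondrial member whose groups did not overlap (edgeR adjusted p = 0.0600). Its messenger overlaps that of mt-Nd4 by 7 bases and is made as 1 RNA with it, and mt-Nd4 had a log2 fold change of 0.20. With the counts of its identical copy Gm10222 added, mt-Nd4l was at 0.44 (edgeR adjusted p = 0.0582), and how many of its reads were counted to the copy is uncertain.

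The most abundant member was mt-Co1, with 12882.4, 16030.4 and 12066.4 CPM in CON mice, against 17550.3, 19152.3 and 15148.6 CPM in T + E2 mice. CON mouse 2 lay above T + E2 mouse 3, so the groups overlapped, and the log2 fold change was 0.34 ± 0.14 (SE, edgeR adjusted p = 0.124). The other complex IV subunits of the mitochondrial genome, mt-Co2 and mt-Co3, had log2 fold changes of 0.24 and 0.31. Cytochrome b of complex III, mt-Cytb, had 5060.2 to 6476.2 CPM against 5574.4 to 7259.9 CPM, a log2 fold change of 0.24. The ATP synthase genes mt-Atp6 and mt-Atp8, which share 1 RNA, had values of 0.22 and 0.33.

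Among the complex I genes of the mitochondrial genome, mt-Nd5 had 2669.7, 3488.3 and 2595.9 CPM in CON mice, against 3972.1, 4281.2 and 3230.8 CPM in T + E2 mice, a log2 fold change of 0.39 ± 0.15 (SE, edgeR adjusted p = 0.115). The genes mt-Nd1, mt-Nd2 and mt-Nd3 had log2 fold changes of 0.21, 0.10 and 0.23. The level of mt-Nd6, the one member transcribed from the other strand, was 8.20, 11 and 4.65 CPM in CON mice, against 8.64, 8.21 and 9.40 CPM in T + E2 mice. Per kilobase it was at 16.1 CPM, where the next lowest mitochondrial member, mt-Nd3, was at 853.8 and the highest, mt-Co1, at 10014.1. It overlaps mt-Nd5 by 14 bases on the opposite strand, and whether the counting used strand is not given in the sources used here.

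**Figure D5:**
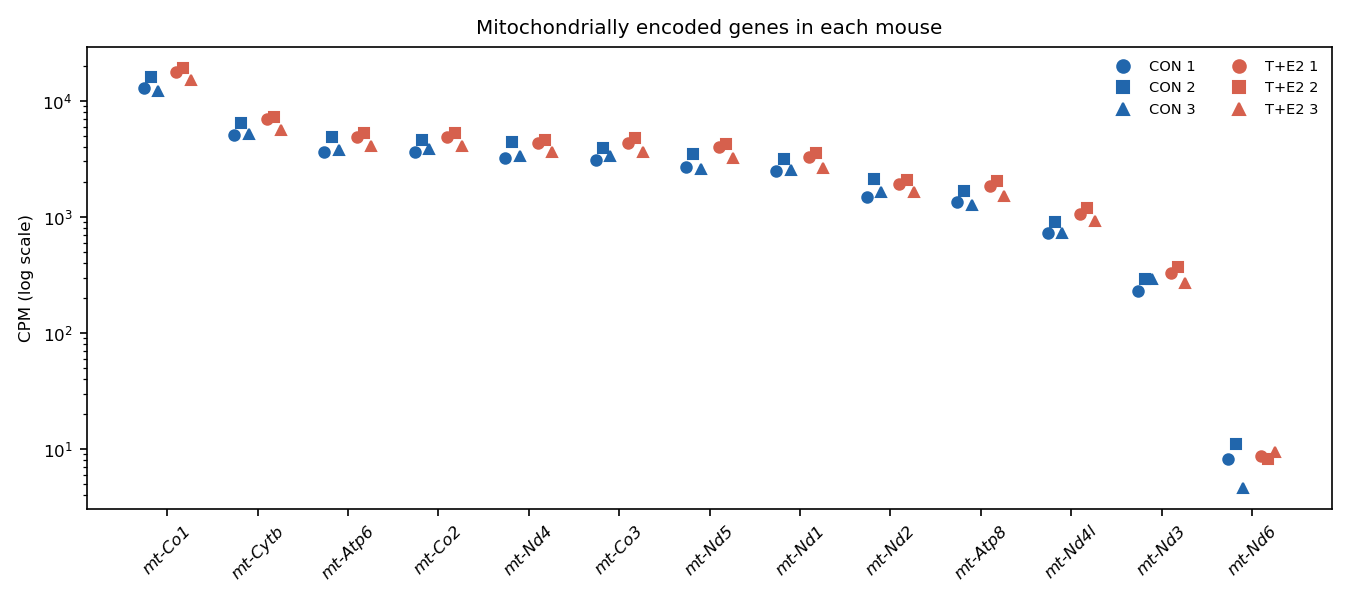
CPM (log axis) of the 13 mitochondrially encoded members in each mouse, ordered by the CON mean; blue is CON and red T + E2, and the marker shape gives the mouse. CON mouse 2 reaches into the range of the T + E2 mice for most genes, and mt-Nd6 lies far below the others.

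Compared per kilobase, the median mitochondrial member was at 3107.4 CPM and the median nuclear member at 60.8 CPM. Within the mitochondrial genome the complex IV and ATP synthase genes, mt-Co1 to mt-Co3 and mt-Atp6 and mt-Atp8, were at 4898.6 to 10014.1 CPM per kb, mt-Cytb at 5319.7, and the complex I genes at 3107.4 or less. Among nuclear genes of the complexes, medians were 50.2 CPM per kb for complex I, 63.5 for complex II, 115.4 for complex III, 106.8 for the tested genes of complex IV and 93.3 for ATP synthase. These differences between genes are of level and carry no test. Across the 87 tested nuclear members, the log2 fold change had a Spearman correlation of -0.22 with transcript length and of -0.05 with mean CPM, and genes are not independent replicates.

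Genes that build, feed and regulate the chain but lie outside the symbol rule were counted in the same fit. Of 43 further assembly factors, 1 rose and 1 fell, with a median log2 fold change of -0.01. Ttc19, which acts in complex III assembly, had 10.7 to 11.2 CPM in CON mice, against 13.5 to 15.6 CPM in T + E2 mice (log2 fold change 0.40, edgeR adjusted p 0.0472). Oxa1l, which inserts mitochondrially made proteins into the inner membrane, had 90.5 to 99.4 CPM against 68.4 to 77.5 CPM (-0.42, edgeR adjusted p 0.0177).

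Among 21 tested subunits and carriers outside the rule, 3 rose and 1 fell, with a median of 0.01. Atpif1, the inhibitor of ATP synthase running in reverse, had 78.3 to 87.3 CPM in CON mice, against 102.2 to 118.4 CPM in T + E2 mice (log2 fold change 0.43, edgeR adjusted p 0.0176). Etfb, which carries electrons from fatty acid oxidation, and Coq10b, a ubiquinone-binding protein, had log2 fold changes of 0.60 and 0.62 with edgeR adjusted p of 0.0461 and 0.0337. Dhodh, which feeds electrons from pyrimidine synthesis into ubiquinone, fell by 0.64 on the log2 scale (edgeR adjusted p = 0.0266).

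Of 17 tested regulators of mitochondrial biogenesis, 1 rose and 2 fell, with a median of -0.03. Esrrg, an oestrogen-related receptor, had 31.0, 28.0 and 28.4 CPM in CON mice, against 20.3, 15.8 and 16.6 CPM in T + E2 mice (-0.73 ± 0.12 SE, edgeR adjusted p 0.00513). Pprc1, a coactivator of the PGC-1 family, had 31.5 to 39.1 CPM against 17.0 to 24.9 CPM (-0.70, edgeR adjusted p 0.0182). Its relative Ppargc1a, which encodes PGC-1alpha and was chosen after its values were seen, had 7.21, 9.65 and 6.41 CPM in CON mice, against 9.54, 15.3 and 13.6 CPM in T + E2 mice, without passing (0.73 ± 0.22 SE, edgeR adjusted p 0.0566), and Ppargc1b was at 0.20. Nfe2l1, a stress-responsive transcription factor, had 120.8 to 138.7 CPM against 194.0 to 200.8 CPM (0.60, edgeR adjusted p 0.00267). The members carrying binding letters for these factors were not tested as a group.

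Of 34 genes for mitochondrial DNA and RNA maintenance, 1 rose, with a median of 0.01; Peo1, the replicative helicase, had 29.8 to 30.9 CPM in CON mice, against 39.7 to 43.7 CPM in T + E2 mice (0.47, edgeR adjusted p 0.00704). Of 77 tested genes of the mitochondrial ribosome, which translates the 13 mitochondrial messengers, 2 rose and 2 fell, with a median of 0.04. Mrps18a had 33.3, 28.9 and 37.9 CPM in CON mice, against 164.6, 145.0 and 127.9 CPM in T + E2 mice (2.13, edgeR adjusted p 6.3e-05), and Mrps6 had 50.1 to 62.9 CPM against 27.0 to 27.9 CPM (-1.04, edgeR adjusted p 0.000481). The others were Mrpl33, with 14.0 to 18.3 CPM against 21.4 to 24.8 CPM (0.51, edgeR adjusted p 0.0302), and Mrps17, with 25.4 to 28.2 CPM against 19.9 to 22.4 CPM (-0.36, edgeR adjusted p 0.0367). Of 19 mitochondrial content markers, 2 fell, with a median of -0.02. These were the outer membrane channel Vdac1, with 219.4 to 240.5 CPM in CON mice, against 170.7 to 184.4 CPM in T + E2 mice (-0.36, edgeR adjusted p 0.0212), and prohibitin Phb2, with 127.7 to 148.7 CPM against 92.8 to 101.1 CPM (-0.46, edgeR adjusted p 0.0131). Shares of genes called in these lists lay near or below the 10.4% and 9.25% of all tested genes, except 3 of 21 carriers that rose and, among those that fell, 2 of 17 regulators and 2 of 19 content markers.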

How the data were processed

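The authors deposited 1 table of whole-number read counts per gene, without normalization, and FPKM values they derived from these counts; per the labels, the submitters' processing notes name TopHat, Bowtie2 and HTSeq, while versions, strand setting and the treatment of reads with several alignments are not given in the sources used here. Library kits were TruSeq RNA, paired-end. All 34745 genes entered the filter, and low genes were removed with filterByExpr (counts of 10, total of 15). The remaining 15580 genes were scaled by TMM and compared by the quasi-likelihood test of edgeR 4.0.16 in R 4.3.3, group only. Benjamini-Hochberg adjustment was over these 15580 genes, and a call is an adjusted p under 0.05. Scripts were tested on simulated data. CPM uses TMM-scaled library sizes. Levels between genes are CPM per kilobase of the APPRIS principal transcript of GENCODE M21 (GRCm38), because the length behind the deposited FPKM was a median of 2.09 times that length for nuclear members and 1 for mitochondrial ones. Coordinates are those of the deposited table. Similar transcripts were found with BLAST+ 2.17.0+ (coding sequence, 90% identity or more over at least 100 bases). Intervals are 95% intervals. Alternatives were DESeq2 1.42.0, limma 3.58.1 on log2(FPKM + 0.1) and log2(FPKM + 1), other scalings and filters, a replicate block and each mouse left out. Adding the chromosome 1 copies to their partners, and leaving out both mice 2, were chosen after seeing the data. Members and gene lists were chosen with earlier results of these data known. Named genes were all mitochondrial members, called members by adjusted p and by size, the most abundant of each complex, isoform sets and called genes of the lists; others are said to be chosen after their values were seen. Replicates differed beyond sampling noise (chi-square per degree of freedom 18.6 to 40.8). An exact permutation test of 3 against 3 mice cannot go below p = 0.1, so none is given. The values of 1 member are not reported here by name; it is included in all counts and medians.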

Additional observations from a re-analysis of the deposited data

How the results depend on the processing

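Medians of the mitochondrial and nuclear log2 fold changes stayed above 0 under every alternative run, at 0.17 to 0.37 and 0.10 to 0.23 when a single mouse was left out. The count of members called higher was 3 by edgeR's quasi-likelihood test, 7 by DESeq2, 0 to 8 with a single mouse left out (0 without CON mouse 1 and without T + E2 mouse 2, 1 without T + E2 mouse 1, 8 without CON mouse 3 and without T + E2 mouse 3) and 0 with CON mouse 2 and T + E2 mouse 2 left out together; it was within 1.5 times under the remaining settings. Of all genes with an adjusted p, the same fits called 10.4% higher by edgeR, 9.84% by DESeq2, 6.90 to 9.27% with a single mouse left out and 5.25% with both mice 2 left out. The count called lower was 0, and 1 with total-count scaling and without CON mouse 1, Ndufs7 in both, with a range of 0 to 1 over single mice left out. These fits hold fewer samples, which by construction widens their error, and the cause of the larger counts was not tested. With the nuclear genes among the 10 most abundant ones left out of the totals, the mitochondrial share was 5.37% (CON) and 5.96% (T + E2). Replicate numbers do not pair the mice: deviations of same-numbered mice correlated at -0.0516, 0.0275 and 0.0463, and 1 of 6 mice correlated best with its own number. A replicate block called 2 members, Ndufa1 and mt-Nd4l, and gave Ndufa7 and Uqcrh adjusted p of 0.0513 and 0.0591 in the blocked edgeR fit.

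Signs changed for genes near 0, whose adjusted p was far above the threshold in each case. Atp5c1 (0.03) went to -0.004 with total-count scaling, -0.01 with limma on log2(FPKM + 0.1), -0.01 with limma on log2(FPKM + 1) and -0.05 with both mice 2 left out, with -0.04 to 0.10 over single mice left out. Cox6b2 (0.02) went to -0.01, -0.01, -0.004 and -0.24 under the same settings, with -0.12 to 0.18. With both mice 2 left out, Atp5g3 was at -0.05 and Cox6a1 at 0.02. Over single mice left out, Atp5g3 ran from -0.07 to 0.27, Cox6a1 from -0.07 to 0.02, Cox8a from -0.15 to 0.01, mt-Nd2 from -0.003 to 0.26, mt-Nd6 from -0.13 to 0.45, Ndufa4 from -0.01 to 0.20 and Sdhb from -0.06 to 0.04. Adding the chromosome 1 copies to their partners changed neither count, and left the mitochondrial median at 0.24. Depth limits mainly the 5 untested isoforms and genes with few counts such as Ndufb4 and Cox4i2, whose intervals are wide.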
